A study of Homo sapiens with 30 samples.

Results

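The genes described here are 41 human genes of homologous recombination, the Fanconi anaemia pathway and mismatch repair, chosen by gene symbol from the 26443 genes with values in the deposited expression tables. They were followed by RNA-seq in LNCaP, a cell line from an androgen-responsive prostate cancer, over 10 groups with 3 libraries each. In the first experiment, collected on day 5, short hairpin RNAs against USP7 (shUSP7), BUB3 (shBUB3) or FOXA1 (shFOXA1) were each set against the control hairpin vector pLKO. In the second, collected on day 4, small interfering RNA against EZH2 (siEZH2) was set against a control small interfering RNA (siCtrl). In the third, cells that carried a FOXA1 hairpin (shFoxA1) were given HA-tagged FOXA1 with a lysine changed to alanine (K295A), HA-tagged wild-type FOXA1 (WT) or neither, and the control was the vector pGIPZ. The labels give day 5 for these groups, in a range that stops short of the third K295A library. All groups are LNCaP, and the labels name a single hairpin or siRNA per target in each experiment. Whether replicates came from separate cultures is not stated, and the p-values cover only how much these libraries vary.

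Homologous recombination repairs a broken chromosome by copying an intact one, usually the sister chromatid, and so works in S and G2 phase. The break ends are trimmed to single strands, BRCA1 and BRCA2 with their partners load the strand-exchange recombinase, paralogs and RAD54 family proteins help it invade the template, and helicases and nucleases resolve the joined molecules. The Fanconi pathway clears DNA crosslinks: a multi-subunit core complex, with the ubiquitin-conjugating enzyme UBE2T, marks the FANCD2-FANCI pair at a stalled fork. Mismatch repair removes replication errors, and LNCaP is known for a defect in it. Many of these genes are transcribed most in late G1 and S phase. E2F factors and the DREAM complex set the level of replication genes over the cell cycle.

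Promoter windows are shown for 5 members that recur below: EXO1, FANCD2 and UBE2T, which fell strongly in several knockdowns, XRCC2, whose level differed most between the pLKO knockdowns, and SLX4, which did not fall. Each is 250 bases before to 50 after the annotated start, from RefSeq on GRCh38.p14, written 5′ to 3′ on the gene's strand. Capitals mark a word of the E2F type (TTTGGCGC, TTTCGCGC, TTTGGCGG or TTTCCCGC) or of the CHR type bound by the DREAM complex (TTTGAA or TTTAAA), searched on both strands. The windows lie at chr1:241847954-241848253 on the plus strand (EXO1), chr3:10026187-10026486 on the plus strand (FANCD2), chr1:202341887-202342186 on the minus strand (UBE2T), chr7:152676092-152676391 on the minus strand (XRCC2) and chr16:3611557-3611856 on the minus strand (SLX4).
EXO1: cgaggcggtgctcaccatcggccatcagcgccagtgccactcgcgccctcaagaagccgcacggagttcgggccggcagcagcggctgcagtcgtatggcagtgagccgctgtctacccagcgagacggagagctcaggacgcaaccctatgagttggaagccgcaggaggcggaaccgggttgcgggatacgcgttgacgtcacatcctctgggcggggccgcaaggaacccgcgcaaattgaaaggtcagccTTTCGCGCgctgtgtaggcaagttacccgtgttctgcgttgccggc
FANCD2: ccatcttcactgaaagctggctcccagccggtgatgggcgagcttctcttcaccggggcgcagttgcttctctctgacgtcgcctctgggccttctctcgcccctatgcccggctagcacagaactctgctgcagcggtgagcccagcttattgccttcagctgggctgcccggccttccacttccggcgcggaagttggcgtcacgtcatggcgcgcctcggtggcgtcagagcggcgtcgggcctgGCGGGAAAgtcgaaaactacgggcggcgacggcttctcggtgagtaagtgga
UBE2T: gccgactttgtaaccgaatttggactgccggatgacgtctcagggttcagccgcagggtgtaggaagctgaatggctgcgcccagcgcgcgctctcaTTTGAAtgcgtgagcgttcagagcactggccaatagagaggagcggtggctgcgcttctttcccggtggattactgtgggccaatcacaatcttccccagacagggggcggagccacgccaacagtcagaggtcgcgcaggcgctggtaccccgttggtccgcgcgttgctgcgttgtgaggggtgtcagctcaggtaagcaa
XRCC2: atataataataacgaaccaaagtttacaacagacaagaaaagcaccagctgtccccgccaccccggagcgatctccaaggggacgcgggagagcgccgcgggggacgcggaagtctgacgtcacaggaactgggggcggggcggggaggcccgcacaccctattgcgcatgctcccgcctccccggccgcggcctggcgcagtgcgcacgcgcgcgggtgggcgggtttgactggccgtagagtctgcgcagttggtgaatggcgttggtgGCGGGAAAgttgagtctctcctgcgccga
SLX4: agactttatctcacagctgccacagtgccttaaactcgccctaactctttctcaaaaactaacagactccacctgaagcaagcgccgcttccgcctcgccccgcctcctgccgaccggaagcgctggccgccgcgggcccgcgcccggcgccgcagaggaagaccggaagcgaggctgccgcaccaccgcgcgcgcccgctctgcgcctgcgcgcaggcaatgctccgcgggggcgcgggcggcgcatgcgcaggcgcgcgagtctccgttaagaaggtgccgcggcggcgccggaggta
Counted from the annotated start, the E2F-type words begin at position 4 in EXO1, -2 in FANCD2 and 21 in XRCC2. The UBE2T window holds a CHR-type word at position -153, and neither type of word is in the SLX4 window. RefSeq has more than 1 window for 14 members, EXO1 among them: its other window, at chr1:241848481-241848780, has no E2F-type word and holds the CHR-type word TTTAAA.

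RefSeq windows were found for 36 of the 41 members, and FANCI, RAD54B, WRN, RMI2 and NBN were not matched. E2F-type words were in 5 of the 36 (13.9%: EXO1, FANCC, FANCD2, MSH6 and XRCC2), against 6.92% of 9031 genes tested in the pLKO experiment and 4.05% of all 27305 genes with a window. CHR-type words were in 6 of the 36 (16.7%), against 20.2% of the tested genes, and the word CCAAT was in 19 (52.8%), against 43.9%. Neither E2F-type nor CHR-type words were in any window of BRCA1, RAD51AP1, RAD54L, CHEK2 or EME1, which also fell strongly in the pLKO knockdowns. The 5 printed windows therefore do not stand for the other members. These words describe the windows and are not sites shown to be bound.

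The deposited values are FPKM in the first and second experiments and RPKM in the third, both read counts scaled to gene length and library size, and the steps between low values gave back whole reads for 26368 genes in each table. The recovered reads of those genes came to 11.9 to 19.1 M per library in the pLKO experiment, 8.05 to 11.98 M in the siRNA experiment and 6.34 to 9.67 M in the pGIPZ experiment. They leave out the other genes and are not full library sizes. Each target was lower than its control where it was named: USP7 had 6.38, 6.14 and 6.13 FPKM in shUSP7 libraries and BUB3 had 3.83, 4.7 and 3.47 FPKM in shBUB3 libraries. The pLKO libraries had 28.6, 28.3 and 27.6 FPKM of USP7 and 36.9, 38.3 and 33.7 FPKM of BUB3. FOXA1 had 58.3, 60.9 and 57.7 FPKM in shFOXA1 libraries, against 116, 116 and 116 FPKM in pLKO libraries. EZH2 had 5.03, 4.83 and 5.08 FPKM in siEZH2 libraries, against 13.5, 11.7 and 12.6 FPKM in siCtrl libraries. In the third experiment FOXA1 had 155, 149 and 150 RPKM in K295A, 151, 152 and 152 in WT and 83.1, 84.0 and 80.4 in shFoxA1 libraries, against 131, 134 and 129.6 RPKM in pGIPZ libraries. Targets were also low where they were not named. EZH2 had means of 6.27 ± 0.309 FPKM in shUSP7, 4.55 ± 0.219 in shBUB3 and 5.87 ± 0.429 in shFOXA1 libraries, against 12.6 ± 0.265 FPKM in pLKO libraries (SD, n = 3 each), and BUB3 had 15.6 ± 0.639 FPKM in shFOXA1 libraries, against 36.3 ± 2.34 FPKM in pLKO libraries. The FOXA1 values of the third experiment include the reintroduced copies, so they do not measure the endogenous gene alone. The luminal markers KLK3, KRT8, KRT18, TMPRSS2 and FOLH1 were high in all libraries (lowest value 43.0 FPKM, for TMPRSS2), while KRT5, TP63, COL1A2, DCN, PTPRC, CD3E, PECAM1 and CDH5 stayed near 0. Of the other markers of basal, stromal, immune and endothelial cells, KRT14 lay between 0.0385 and 3.16 FPKM, COL1A1 between 1.44 and 12.3 FPKM, CD68 between 2.23 and 6.23 FPKM and VWF between 0.104 and 4.57 FPKM. In the third experiment KRT14 lay between 1.4 and 7.38 RPKM, COL1A1 between 3.89 and 5.59 RPKM, CD68 between 8.23 and 34.7 RPKM and VWF between 0.655 and 1.36 RPKM. The third shBUB3 library stands apart, with FPKM that sum to 367614 against 235344 to 306578 in the other 11 libraries of its experiment.

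Most of the 41 genes fell in each of the 4 knockdowns set against pLKO or siCtrl, and FANCI, UBE2T and RAD51AP1 were among those that fell most. Tests are limma on log2(value + 1) over all genes with at least 1 FPKM or RPKM in 3 libraries, and a call is an adjusted p below 0.05. In shUSP7 cells 33 members fell, 2 rose and 6 did not pass, where 62.2% of all 12524 tested genes were called, 33% lower and 29.1% higher. In shBUB3 cells 37 members fell and none rose (65.2% of all genes called, 32% lower). In shFOXA1 cells 34 fell and 1 rose (70.3% called, 45.1% lower, 25.2% higher). The counts against pLKO include 8 members that passed the filter through pLKO alone and are set apart below. In siEZH2 cells 27 fell and 2 rose (63.3% of 11908 genes called, 43% lower, 20.3% higher). In bulk RNA, fewer cells that express a gene and less of its RNA per cell cannot be told apart.

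The fall was at least 2-fold for 19 members in shUSP7, 19 in shBUB3, 20 in shFOXA1 and 10 in siEZH2, where 5.79%, 5.64%, 8.87% and 7.03% of all tested genes were called lower by that much. The median log2 fold change over the members was -0.97, -0.97, -0.91 and -0.65, against medians over all tested genes of -0.02, 0.01, -0.15 and -0.16. These log2 fold changes carry the added 1 and understate the change of low genes. Median-ratio scaling, which centres all genes near 0, gave 33 lower and 3 higher members in shFOXA1 and 26 lower and 4 higher in siEZH2. Of all called genes, 51.9% were then lower in shFOXA1 and 54.4% in siEZH2, where the unscaled values gave 64.1% and 67.9%.

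Every member passed the filter, but 8 of them (BRCA1, BRCA2, BRIP1, RAD51D, RAD54B, EXO1, BLM and EME1) reached 1 FPKM in no knockdown library of the pLKO experiment and passed through the pLKO libraries alone. These 8 therefore had to differ, and add no support to the counts. RAD54L (1.01 FPKM in a shBUB3 library) and RMI2 (1.11 and 1.22 FPKM in shFOXA1 libraries) reached that value in fewer knockdown libraries than the 3 required. They too needed pLKO libraries to pass. Both stay in the counts of the other members below, called lower by at least 2-fold in each pLKO knockdown, and also add no support. Among the other 33 members, 25 fell and 2 rose in shUSP7, 29 fell in shBUB3, and 26 fell and 1 rose in shFOXA1. Their median log2 fold changes were -0.77, -0.69 and -0.72. The fall was at least 2-fold for 12 of the 33 in shUSP7, 13 in shBUB3 and 14 in shFOXA1. Of the 12355 tested genes that reached 1 FPKM in some knockdown library, 32.1% were called lower in shUSP7, 31% in shBUB3 and 44.4% in shFOXA1, and 5.07%, 4.96% and 8.19% by at least 2-fold. In the siRNA experiment, RAD54B alone reached 1 FPKM in no siEZH2 library (highest value 0.908 FPKM), and it passed through its control libraries. RAD54B therefore had to be lower in siEZH2 and adds no support to that count. Among the other 40 members, 26 fell and 2 rose in siEZH2.

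**Figure D1:**
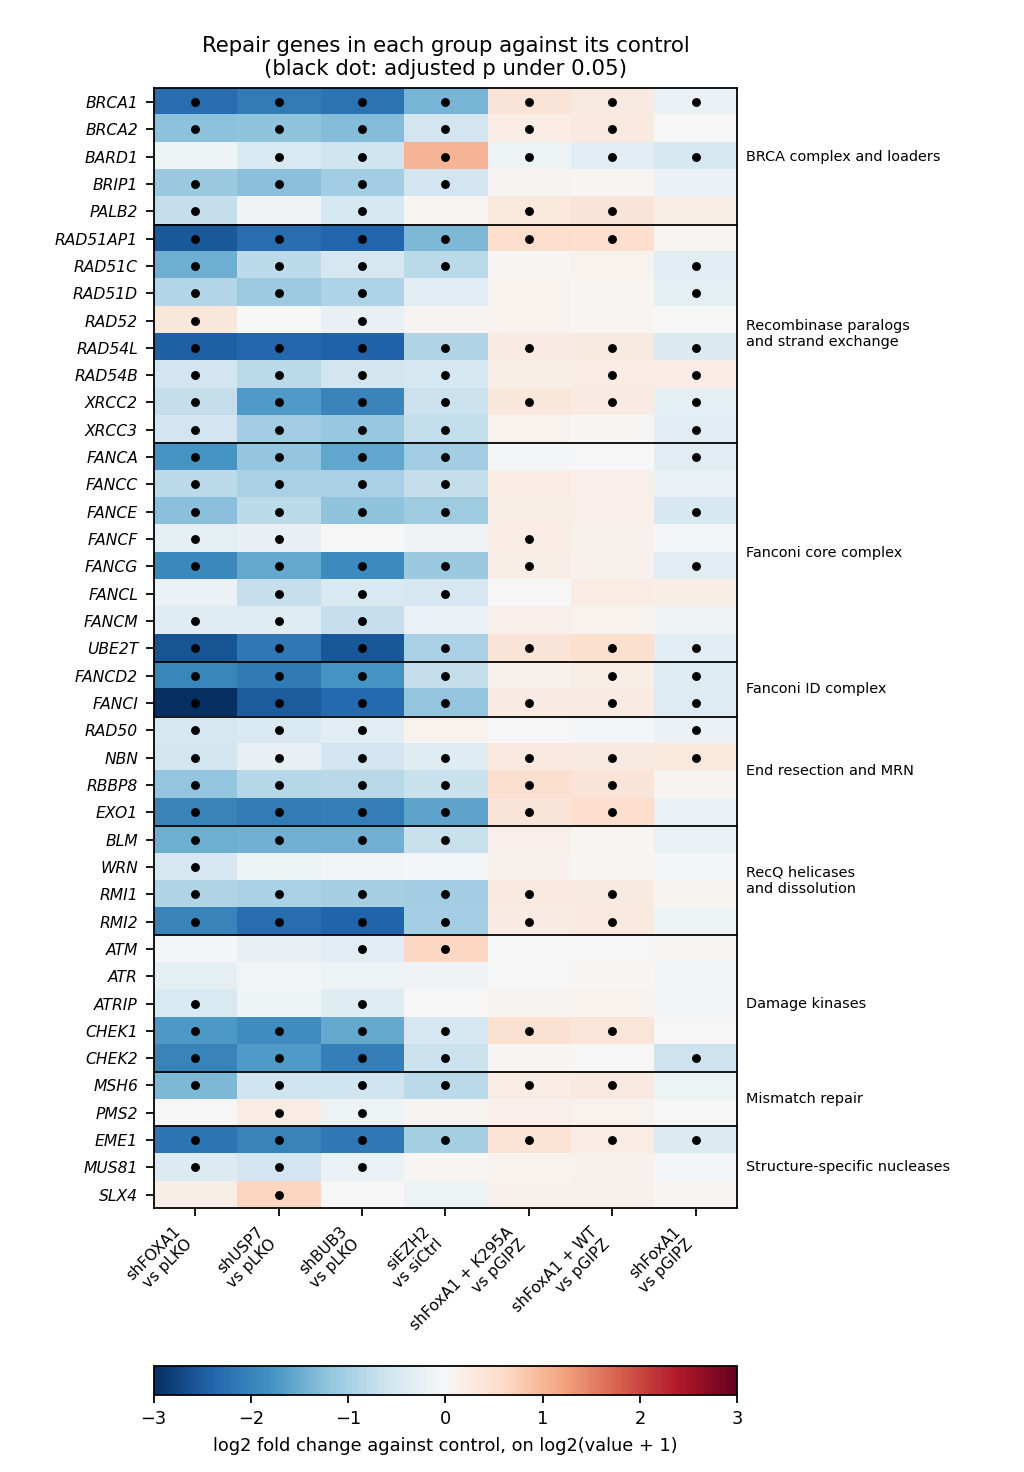
Log2 fold change of each of the 41 genes (rows, grouped by role) against the group's own control (columns), on the log2(value + 1) scale from blue (lower) to red (higher); a black dot marks an adjusted p below 0.05. The first 4 columns are mostly blue, with ATR and SLX4 pale or red, and the K295A and WT columns are mostly pale red.

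The FANCD2-FANCI pair, the substrate of the Fanconi core complex, fell together in the 3 pLKO knockdowns. FANCI, at chr15:89243949-89317261 on the plus strand of GRCh38 in GENCODE 29, had 1.75, 1.87 and 2.18 FPKM in shUSP7, 2.26, 2.43 and 2.07 in shBUB3 and 0.968, 1.1 and 0.864 in shFOXA1 libraries, against 15.9, 15.5 and 15.0 FPKM in pLKO libraries. All knockdown libraries lay below all pLKO libraries, and the means were 12.5% (shUSP7), 14.6% (shBUB3) and 6.33% (shFOXA1) of the pLKO mean. The log2 fold changes were -2.49 ± 0.07 (SE, adjusted p = 2.4e-10), -2.34 ± 0.07 (SE, adjusted p = 2.8e-10) and -3.06 ± 0.07 (SE, adjusted p = 3.5e-11). The last is the lowest value of any member in the 13 comparisons. FANCD2 had 1.36, 1.46 and 1.59 FPKM in shUSP7, 2.15, 2.21 and 1.9 in shBUB3 and 1.88, 1.69 and 1.74 in shFOXA1 libraries, against 9.71, 9.78 and 9.59 FPKM in pLKO libraries. Its groups did not overlap either, with log2 fold changes of -2.11 in shUSP7, -1.79 in shBUB3 and -1.95 in shFOXA1 (adjusted p = 2.3e-10, 5e-10 and 2e-10). In siEZH2 cells FANCI had 9.54, 6.85 and 6.14 FPKM in siEZH2 libraries, against 17.6, 19.7 and 17.2 FPKM in siCtrl libraries, and the log2 fold change was -1.19 ± 0.13 (SE, adjusted p = 2.8e-05). FANCD2 fell by less, at -0.71 ± 0.09 (SE, adjusted p = 5.3e-05). FANCD2 has near-identical pseudogene copies, so its reads may be shared with them.

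Of the 8 core complex genes, 8 fell in shUSP7, 7 in shBUB3, 7 in shFOXA1 and 6 in siEZH2. UBE2T, the E2 enzyme that hands ubiquitin to the pair, was the highest expressed member in pLKO libraries, with 10.2, 8.97 and 11.2 FPKM in shUSP7, 7.2, 6.86 and 8.1 in shBUB3 and 7.0, 7.72 and 6.5 in shFOXA1 libraries, against 46.8, 49.0 and 46.9 FPKM in pLKO libraries. The knockdown libraries all lay below 12 FPKM, where BARD1 had the highest mean of the members, and the log2 fold changes were -2.13 in shUSP7, -2.54 in shBUB3 and -2.59 in shFOXA1 (adjusted p = 1.7e-09, 3.6e-10 and 2.2e-10). FANCG and FANCA are core subunits. FANCG had -1.55 in shUSP7, -1.91 in shBUB3 and -1.92 in shFOXA1, and FANCA had -1.17 in shUSP7, -1.55 in shBUB3 and -1.77 in shFOXA1, all called. At the other end stood FANCF, the adaptor subunit, with 7.47, 7.39 and 8.81 FPKM in shUSP7, 9.53, 9.1 and 9.63 in shBUB3 and 7.5, 6.96 and 7.87 in shFOXA1 libraries, against 10.2, 9.15 and 8.95 FPKM in pLKO libraries. Those libraries overlap in shBUB3. The shUSP7 log2 fold change of -0.23 ± 0.07 (SE, adjusted p = 0.0154) lost its call without pLKO replicate 1 or shUSP7 replicate 1 or 2 (-0.20 to -0.18, adjusted p 0.0620 to 0.0718). The shFOXA1 value of -0.30 ± 0.07 (SE, adjusted p = 0.00275) lost it under median-ratio scaling (-0.16, adjusted p = 0.0726). FANCL, the ubiquitin ligase subunit, had -0.70 and -0.47 in shUSP7 and shBUB3, both called. In shFOXA1 it had -0.18 ± 0.09 (SE, adjusted p = 0.081) and was called only without pLKO replicate 3 or shFOXA1 replicate 3 (-0.26 and -0.25, adjusted p = 0.0249 and 0.0360).

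BRCA1 and BRCA2, which load the recombinase, were below 1 FPKM in every library of the pLKO knockdowns. Like BRIP1, they passed the filter through the pLKO libraries alone, so they had to be lower there. BRCA1 had 0.716, 0.549 and 0.592 FPKM in shUSP7, 0.44, 0.68 and 0.372 in shBUB3 and 0.535, 0.404 and 0.282 in shFOXA1 libraries, against 5.93, 5.67 and 6.08 FPKM in pLKO libraries. Those are 81 to 112, 62 to 137 and 41 to 95 recovered reads in the knockdown groups and 847 to 990 in pLKO. Its log2 fold changes were -2.09 in shUSP7, -2.21 in shBUB3 and -2.30 in shFOXA1. BRCA2 had 0.165, 0.131 and 0.0719 FPKM in shUSP7, 0.0732, 0.0739 and 0.0544 in shBUB3 and 0.12, 0.0998 and 0.0890 in shFOXA1 libraries, against 1.65, 1.51 and 1.66 FPKM in pLKO libraries. The highest knockdown library had 0.165 FPKM and the lowest pLKO library 1.51 FPKM; its log2 fold changes (-1.22 in shUSP7, -1.29 in shBUB3 and -1.24 in shFOXA1) are held down by the added 1. BRIP1, the helicase partner of BRCA1, was at 7.67%, 18.3% and 14.6% of its pLKO mean of 1.68 ± 0.195 FPKM (SD, n = 3) in shUSP7, shBUB3 and shFOXA1 libraries. PALB2, which bridges BRCA1 and BRCA2, had -0.11 ± 0.10 (SE, adjusted p = 0.345) in shUSP7, -0.54 ± 0.10 (SE, adjusted p = 0.00047) in shBUB3 and -0.71 ± 0.10 (SE, adjusted p = 4.6e-05) in shFOXA1.

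BARD1, the obligate partner of BRCA1, fell in shUSP7 and shBUB3 cells and rose in siEZH2 cells. Located at chr2:214725646-214809711 on the minus strand, it had 14.5, 15.1 and 14.9 FPKM in shUSP7, 14.8, 15.9 and 10.1 in shBUB3 and 19.4, 18.9 and 18.5 in shFOXA1 libraries, against 20.8, 20.6 and 21.2 FPKM in pLKO libraries. The shUSP7 and shBUB3 libraries lay below all pLKO libraries, with log2 fold changes of -0.47 ± 0.12 (SE, adjusted p = 0.00526) and -0.61 ± 0.12 (SE, adjusted p = 0.00088), and the third shBUB3 library was the lowest. The shFOXA1 value was -0.13 ± 0.12 (SE, adjusted p = 0.335), which passed in the fit of shFOXA1 and pLKO alone (adjusted p = 0.00797). In siEZH2 cells BARD1 had 41.6, 34.3 and 31.1 FPKM in siEZH2 libraries, against 17.2, 17.5 and 16.0 FPKM in siCtrl libraries. All siEZH2 libraries exceeded all siCtrl libraries, and the log2 fold change of 1.02 ± 0.10 (SE, adjusted p = 1.3e-05) was the highest of any member in any comparison against a control. BRCA1 in the same libraries had 2.61, 1.76 and 1.58 FPKM in siEZH2 libraries, against 6.98, 7.26 and 6.25 FPKM in siCtrl libraries, a log2 fold change of -1.40 ± 0.13 (SE, adjusted p = 7.5e-06). BRCA2 had -0.56 ± 0.12 (SE, adjusted p = 0.00233), and PALB2 0.06 ± 0.09 (SE, adjusted p = 0.559).

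**Figure D2:**
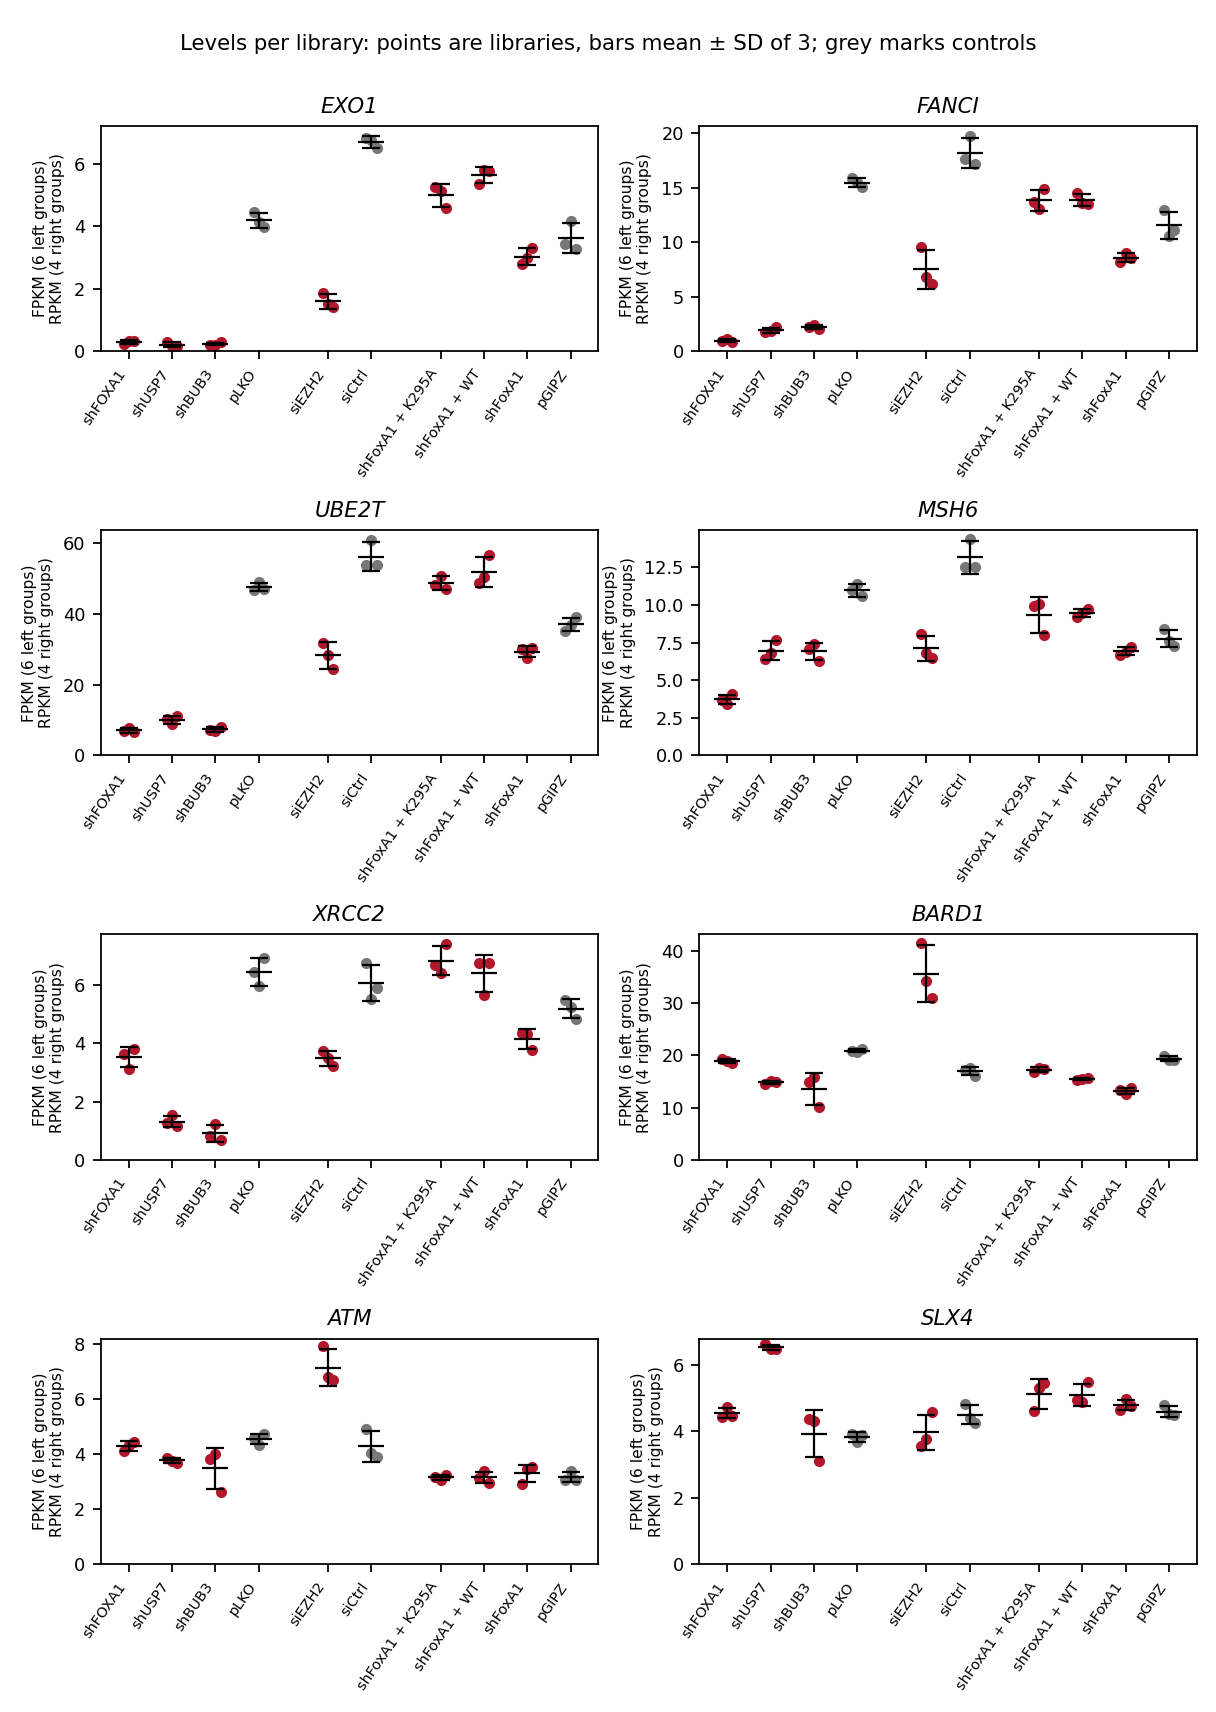
Expression of 8 members in each library (points; grey for controls), with the mean and SD of 3 libraries as bars; FPKM in the 6 left groups, RPKM in the 4 right groups, which come from separately normalized tables. EXO1 and FANCI are near the axis in the 3 pLKO knockdowns, BARD1 and ATM stand above siCtrl in siEZH2, and SLX4 stands above pLKO in shUSP7.

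Among the recombinase paralogs and strand-exchange factors, RAD54L, a motor protein that drives strand invasion, and RAD51AP1, which stabilises the joint, were among the 4 lowest members in each pLKO knockdown. RAD54L had 0.868, 0.92 and 0.672 FPKM in shUSP7, 0.623, 1.01 and 0.59 in shBUB3 and 0.869, 0.639 and 0.58 in shFOXA1 libraries, against 7.52, 8.67 and 8.61 FPKM in pLKO libraries. RAD51AP1 had 1.16, 1.12 and 1.18 FPKM in shUSP7, 0.886, 1.29 and 0.877 in shBUB3 and 0.949, 0.732 and 0.826 in shFOXA1 libraries, against 10.6, 9.57 and 8.29 FPKM in pLKO libraries. Knockdown and pLKO libraries did not overlap in either. The log2 fold changes of RAD54L were -2.35 in shUSP7, -2.42 in shBUB3 and -2.45 in shFOXA1, and those of RAD51AP1 were -2.28 in shUSP7, -2.38 in shBUB3 and -2.51 in shFOXA1 (adjusted p at most 5.9e-09). The paralogs changed by less. RAD51D had -1.09 in shUSP7, -0.92 in shBUB3 and -0.89 in shFOXA1, and XRCC3 had -1.04 in shUSP7, -1.14 in shBUB3 and -0.58 in shFOXA1. RAD51C had -0.80 in shUSP7, -0.49 in shBUB3 and -1.47 in shFOXA1, and all 9 values were called. Those of RAD51D add no support, since it passed the filter through pLKO alone. RAD52, a strand-annealing protein, had 3.86, 3.92 and 3.59 FPKM in shUSP7, 3.11, 3.48 and 2.74 in shBUB3 and 5.35, 4.85 and 5.04 in shFOXA1 libraries, against 4.1, 3.72 and 3.53 FPKM in pLKO libraries. Its shFOXA1 libraries lay above all pLKO libraries, with a log2 fold change of 0.35 ± 0.07 (SE, adjusted p = 0.00137), while shUSP7 had 0.00 ± 0.07 (SE, adjusted p = 0.966). In siEZH2 cells RAD51AP1 had -1.35 ± 0.17 (SE, adjusted p = 7.6e-05) and RAD52 had 0.09 ± 0.11 (SE, adjusted p = 0.484). The shBUB3 value of -0.22 ± 0.07 (SE, adjusted p = 0.0222) for RAD52 was not called without pLKO replicate 1 or shBUB3 replicate 3 (-0.17 and -0.15, adjusted p = 0.0933 and 0.0558) or in the fit of shBUB3 and pLKO alone (0.0767).

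In end resection, EXO1, the nuclease of long-range resection and also of mismatch excision, had 0.299, 0.173 and 0.174 FPKM in shUSP7, 0.198, 0.211 and 0.281 in shBUB3 and 0.227, 0.341 and 0.336 in shFOXA1 libraries, against 4.46, 4.13 and 3.98 FPKM in pLKO libraries. That is 12 to 22, 14 to 22 and 19 to 27 recovered reads in shUSP7, shBUB3 and shFOXA1 libraries against 261 to 339 in pLKO libraries. The knockdown means were 5.14%, 5.49% and 7.2% of the pLKO mean, with log2 fold changes of -2.09 in shUSP7, -2.08 in shBUB3 and -2.00 in shFOXA1. EXO1 passed the filter through the pLKO libraries alone, so it had to be lower in these knockdowns. In siEZH2 cells EXO1 was the lowest member, with 1.87, 1.51 and 1.4 FPKM in siEZH2 libraries, against 6.83, 6.75 and 6.49 FPKM in siCtrl libraries and a log2 fold change of -1.57 ± 0.10 (SE, adjusted p = 5.2e-07). RBBP8, which starts resection, had -0.86 in shUSP7, -0.83 in shBUB3 and -1.20 in shFOXA1 in the pLKO knockdowns and -0.68 in siEZH2, all called. The break sensors RAD50 and NBN, both of the MRN complex, changed least in this group. RAD50 had -0.46 in shUSP7, -0.31 in shBUB3 and -0.49 in shFOXA1, and NBN had -0.22 in shUSP7, -0.58 in shBUB3 and -0.56 in shFOXA1, all called. In siEZH2 cells RAD50 had 0.09 ± 0.10 (SE, adjusted p = 0.425) and was called higher under median-ratio scaling (0.23, adjusted p = 0.0488). The NBN value of -0.37 ± 0.12 (SE, adjusted p = 0.0183) was not called without siCtrl replicate 2 or siEZH2 replicate 2 or 3 (-0.35 to -0.27, adjusted p 0.0527 to 0.0613), without the filter on low values or under median-ratio scaling.

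In the RecQ group, RMI2 had the lowest log2 fold changes in the 3 pLKO knockdowns, and WRN fell in shFOXA1. RMI2, a subunit of the complex that dissolves joined DNA molecules, had 0.552, 0.653 and 0.624 FPKM in shUSP7, 0.406, 0.58 and 0.518 in shBUB3 and 0.60, 1.11 and 1.22 in shFOXA1 libraries, against 6.98, 7.41 and 6.3 FPKM in pLKO libraries. Every knockdown library was below 1.3 FPKM, and the log2 fold changes were -2.29 in shUSP7, -2.39 in shBUB3 and -2.01 in shFOXA1 (adjusted p = 1.2e-08, 7.5e-09 and 2.1e-08). BLM, the helicase of that complex, had 4 to 19 recovered reads in shUSP7, 13 to 16 in shBUB3 and 9 to 14 in shFOXA1 libraries, against 198 to 227 in pLKO libraries, so its level in the knockdowns is poorly measured. Its means were 6.15% (shUSP7), 6.17% (shBUB3) and 4.98% (shFOXA1) of the pLKO mean, below the 8.84%, 7.27% and 14.2% of RMI2, while on the log2(value + 1) scale their order is the reverse. WRN, the helicase lost in Werner syndrome, had 2.79, 2.76 and 2.99 FPKM in shUSP7, 3.03, 3.51 and 2.62 in shBUB3 and 2.15, 1.82 and 2.16 in shFOXA1 libraries, against 3.49, 3.12 and 3.24 FPKM in pLKO libraries. The shFOXA1 libraries were below all pLKO libraries, with -0.49 ± 0.08 (SE, adjusted p = 0.00022). The shUSP7 value of -0.15 ± 0.08 (SE, adjusted p = 0.127) passed in the fit of shUSP7 and pLKO alone (adjusted p = 0.0363), and the shBUB3 value was -0.08 ± 0.08 (SE, adjusted p = 0.393).

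Among the damage kinases, the effectors CHEK1 and CHEK2 fell in all 3 pLKO knockdowns. CHEK1 had -1.87 in shUSP7, -1.53 in shBUB3 and -1.72 in shFOXA1, and CHEK2 had -1.70 in shUSP7, -2.04 in shBUB3 and -1.99 in shFOXA1. ATR, the apical kinase of stalled forks, had 6.04, 5.91 and 5.62 FPKM in shUSP7, 6.54, 6.62 and 4.02 in shBUB3 and 5.13, 4.81 and 4.96 in shFOXA1 libraries, against 6.29, 6.08 and 6.52 FPKM in pLKO libraries. Its log2 fold changes of -0.09, -0.14 and -0.29 did not pass (adjusted p = 0.565, 0.347 and 0.0613). The last passed in the fit of shFOXA1 and pLKO alone (adjusted p = 0.000567) and with voom on recovered reads (0.0463). ATM, the apical kinase of double-strand breaks, had 3.86, 3.74 and 3.68 FPKM in shUSP7, 3.8, 3.98 and 2.62 in shBUB3 and 4.09, 4.3 and 4.44 in shFOXA1 libraries, against 4.56, 4.33 and 4.71 FPKM in pLKO libraries. The shUSP7 libraries lay below all pLKO libraries, and their log2 fold change of -0.22 ± 0.10 (SE, adjusted p = 0.081) passed in the fit of shUSP7 and pLKO alone (adjusted p = 0.00381). The shBUB3 value of -0.32 ± 0.10 (SE, adjusted p = 0.0147), with the third library the lowest, lost its call in the fit of shBUB3 and pLKO alone (adjusted p = 0.0639), and shFOXA1 had -0.07 ± 0.10 (SE, adjusted p = 0.561). In siEZH2 cells ATM had 7.91, 6.79 and 6.7 FPKM in siEZH2 libraries, against 4.92, 4.03 and 3.88 FPKM in siCtrl libraries, with no overlap and a log2 fold change of 0.63 ± 0.10 (SE, adjusted p = 0.0004). ATR passed in none of the 4 knockdowns.

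In mismatch repair, MSH6, the mismatch-binding partner of the MutS alpha dimer, had 6.44, 6.79 and 7.66 FPKM in shUSP7, 7.07, 7.38 and 6.31 in shBUB3 and 3.71, 3.42 and 4.06 in shFOXA1 libraries, against 11.0, 11.4 and 10.6 FPKM in pLKO libraries. The shFOXA1 libraries were the lowest, and the log2 fold changes were -0.59 ± 0.08 (SE, adjusted p = 3.5e-05), -0.60 ± 0.08 (SE, adjusted p = 3e-05) and -1.34 ± 0.08 (SE, adjusted p = 2.4e-08). In siEZH2 cells MSH6 had 8.07, 6.84 and 6.48 FPKM in siEZH2 libraries, against 12.5, 14.4 and 12.6 FPKM in siCtrl libraries, with -0.80 ± 0.10 (SE, adjusted p = 4.7e-05). PMS2, the endonuclease of MutL alpha, had 13.8, 14.1 and 14.6 FPKM in shUSP7 libraries, against 12.4, 11.6 and 12.3 FPKM in pLKO libraries. The shUSP7 libraries were the higher, with 0.21 ± 0.06 (SE, adjusted p = 0.00656), and PMS2 had 0.01 ± 0.06 (SE, adjusted p = 0.828) in shFOXA1 and 0.08 ± 0.09 (SE, adjusted p = 0.457) in siEZH2. The shFOXA1 and siEZH2 values were called higher under median-ratio scaling (0.17 and 0.22, adjusted p = 0.00937 and 0.0442). Its shBUB3 value of -0.15 ± 0.06 (SE, adjusted p = 0.036) was not called without pLKO replicate 1 or 3 or shBUB3 replicate 1 or 3 (-0.15 to -0.11, adjusted p 0.0731 to 0.104). Nor was it called with a replicate block (adjusted p = 0.0560), with voom (0.0518) or in the fit of shBUB3 and pLKO alone (0.104). PMS2 has many near-identical pseudogene copies, as CHEK2 and BRCA1 also have at some exons, so reads may be split between them.

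Among the structure-specific nucleases, EME1 fell most and SLX4 rose in shUSP7. EME1, the regulatory subunit of the nuclease MUS81, had 0.68, 0.615 and 0.696 FPKM in shUSP7, 0.583, 0.45 and 0.451 in shBUB3 and 0.475, 0.446 and 0.452 in shFOXA1 libraries, against 5.53, 5.18 and 6.3 FPKM in pLKO libraries. EME1 passed the filter through pLKO alone, so its groups could not overlap with pLKO. Its log2 fold changes were -2.00 in shUSP7, -2.16 in shBUB3 and -2.19 in shFOXA1. MUS81 itself had -0.58 ± 0.08 (SE, adjusted p = 3.9e-05) in shUSP7, -0.21 ± 0.08 (SE, adjusted p = 0.0318) in shBUB3 and -0.41 ± 0.08 (SE, adjusted p = 0.00047) in shFOXA1. The shBUB3 call was lost under median-ratio scaling (-0.19, adjusted p = 0.0588) and without any 1 of pLKO replicates 1 and 3 and shBUB3 replicates 1 and 2 (-0.20 to -0.13, adjusted p 0.0663 to 0.129), and in the fit of shBUB3 and pLKO alone (0.0876). SLX4, the scaffold that holds several such nucleases, had 6.63, 6.48 and 6.5 FPKM in shUSP7, 4.39, 4.3 and 3.12 in shBUB3 and 4.44, 4.72 and 4.48 in shFOXA1 libraries, against 3.93, 3.67 and 3.89 FPKM in pLKO libraries. All shUSP7 libraries lay above all pLKO libraries, with a log2 fold change of 0.64 ± 0.09 (SE, adjusted p = 6.1e-05), the highest of any member in that comparison. The shBUB3 value of 0.02 ± 0.09 (SE, adjusted p = 0.848) rests on the third library, the lowest of that group; without it SLX4 was called higher (0.15, adjusted p = 0.0122). In shFOXA1 SLX4 had 0.20 ± 0.09 (SE, adjusted p = 0.0618) and passed in the fit of shFOXA1 and pLKO alone (adjusted p = 0.00595), under median-ratio scaling (0.33, adjusted p = 0.00319) and with voom (adjusted p = 0.0464).

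Without the third shBUB3 library, 35 members were lower and 1 was higher in shBUB3. The 3 pLKO knockdowns share their control libraries. ATR and SLX4 were not called lower in shUSP7, shBUB3, shFOXA1 or siEZH2.

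Genes of the cell cycle moved with the members. MKI67, a proliferation marker, had -2.75 in shUSP7, -3.22 in shBUB3, -3.41 in shFOXA1 and -0.87 in siEZH2, all called. A list of 40 S phase replication genes had 39, 38, 40 and 38 called lower in these comparisons (medians -1.55, -1.63, -1.74 and -1.09), and 1 higher in shBUB3. A list of 36 mitosis genes had all 36 called lower in each (medians -2.83, -3.16, -3.22 and -1.24). CDKN1A, the cell cycle inhibitor p21, was higher in the pLKO knockdowns (3.26 in shUSP7, 2.93 in shBUB3 and 2.60 in shFOXA1) and lower in siEZH2, at -1.19 ± 0.06 (SE, adjusted p = 3e-07). Their part in the result for the repair genes was not tested.

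**Figure D3:**
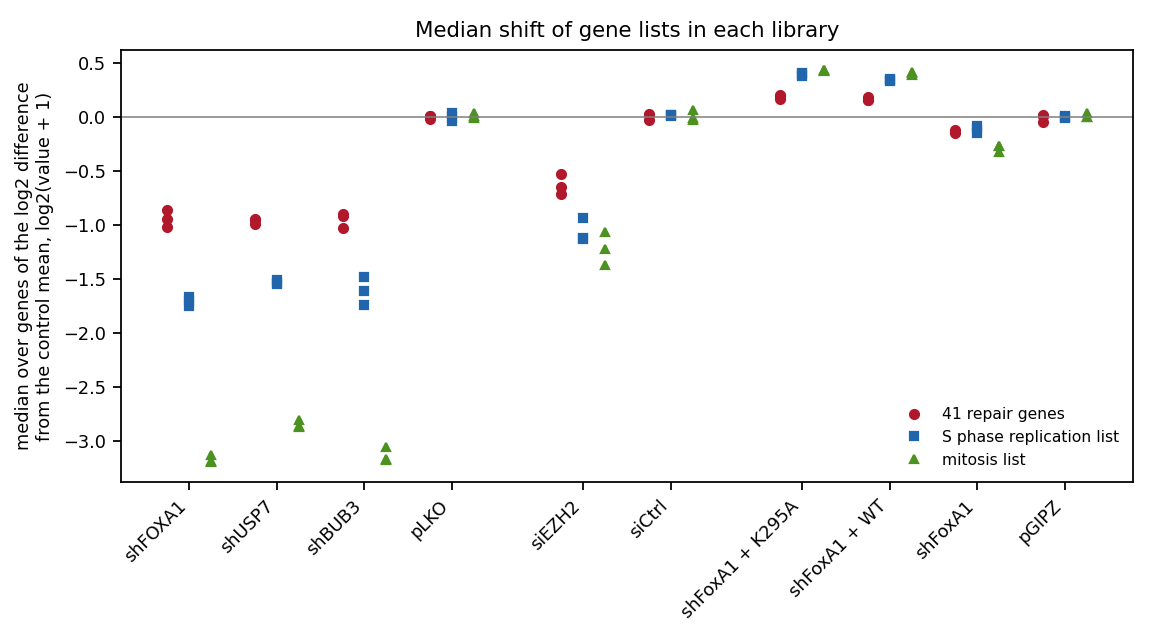
Median over the genes of each list of the log2(value + 1) difference from the mean of the control libraries, 1 point per library: the 41 repair genes, 40 S phase replication genes and 36 mitosis genes. In every knockdown library of the first and second experiments the repair genes lie below 0, the S phase list below them and the mitosis list lowest.

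Repair genes outside the 41 are given for the same 4 knockdowns, in the order shUSP7, shBUB3, shFOXA1 and siEZH2. Of all tested genes, 33%, 32%, 45.1% and 43% were called lower, and 29.1%, 33.3%, 25.2% and 20.3% higher. Of 24 other recombination and Fanconi genes tested, 18 fell and 2 rose in shUSP7, 15 fell and 2 rose in shBUB3, and 17 fell and 4 rose in shFOXA1 (medians -0.48, -0.40 and -0.57). In siEZH2, 15 of 25 fell and 4 rose (median -0.37). The 5 other mismatch repair genes had medians of -0.28, -0.33, -0.51 and 0.05, with 3, 5, 5 and 2 called lower. Of 21 genes of double-strand break signalling, 13, 11, 18 and 12 fell and 3, 4, 1 and 4 rose. End joining, which needs no sister chromatid, had 11, 10, 8 and 8 of 16 genes lower and 0, 3, 3 and 4 higher (medians -0.41, -0.32, -0.16 and -0.23). Base excision repair had 6, 7, 11 and 7 of 16 lower (37.5%, 43.8%, 68.8% and 43.8%) and 3, 4, 0 and 2 higher, with medians of -0.12, -0.03, -0.49 and -0.18. Nucleotide excision repair, which acts on bulky lesions, had 5, 8, 16 and 11 of 21 genes lower (23.8%, 38.1%, 76.2% and 52.4%). In it 6, 7, 2 and 3 were higher, with medians of 0.08, -0.13, -0.30 and -0.26. No test of a difference between these lists and the 41 genes was made.

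The pLKO knockdowns were also set against each other, since each hairpin has a different target. Between shFOXA1 and shUSP7, 26 members differed, 10 higher and 16 lower in shFOXA1 (70.9% of all genes called, 28.1% higher and 42.9% lower). Between shFOXA1 and shBUB3 there were 20, 10 in each direction (73.4% called, 27.6% higher and 45.8% lower). A fit of those 2 groups alone called 12, with fewer members tested, since some fell under the filter. Between shUSP7 and shBUB3, 21 differed, 13 higher and 8 lower in shUSP7 (65.2% called, 29% higher and 36.2% lower). In each case the members' share of calls in either direction is below the background. The share of members higher in shUSP7 than in shBUB3, 31.7%, is slightly above the 29% of all genes.

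The widest gap was in XRCC2, a paralog of the recombinase. XRCC2 had 3.62, 3.13 and 3.8 FPKM in shFOXA1, 1.26, 1.53 and 1.15 in shUSP7 and 0.815, 1.24 and 0.677 in shBUB3 libraries, against 6.46, 5.96 and 6.92 FPKM in pLKO libraries. All shFOXA1 libraries exceeded all shUSP7 and shBUB3 libraries and stayed below all pLKO libraries, with log2 differences of 0.97 ± 0.11 (SE, adjusted p = 8.8e-06) from shUSP7 and 1.25 ± 0.11 (SE, adjusted p = 8.3e-07) from shBUB3. RAD51C, another paralog, went the other way. It had 5.75, 5.61 and 5.86 FPKM in shFOXA1, 9.99, 10.3 and 9.06 in shUSP7 and 10.9, 11.1 and 15.2 in shBUB3 libraries, against 17.5, 18.9 and 16.7 FPKM in pLKO libraries. All shFOXA1 libraries were below all others, with log2 differences of -0.68 ± 0.10 (SE, adjusted p = 0.0001) against shUSP7 and -0.98 ± 0.10 (SE, adjusted p = 4.2e-06) against shBUB3. MSH6 was likewise lower in shFOXA1, at -0.75 ± 0.08 (SE, adjusted p = 3.6e-06) against shUSP7 and -0.74 ± 0.08 (SE, adjusted p = 3.3e-06) against shBUB3. FANCI was lower too, at -0.57 ± 0.07 (SE, adjusted p = 2.4e-05) and -0.72 ± 0.07 (SE, adjusted p = 2.9e-06). SLX4 was higher in shUSP7 than in shBUB3 by 0.62 ± 0.09 (SE, adjusted p = 7.8e-05). MUS81, CHEK1 and FANCD2 were lower in shUSP7, at -0.38, -0.34 and -0.32 (adjusted p = 0.00104, 0.00165 and 0.00067). XRCC2 in siEZH2 cells had 3.74, 3.51 and 3.21 FPKM in siEZH2 libraries, against 6.75, 5.53 and 5.91 FPKM in siCtrl libraries, with -0.65 ± 0.10 (SE, adjusted p = 0.00019).

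In the third experiment the FOXA1 hairpin lowered fewer members than in pLKO, and by smaller steps, a difference that was not tested. In shFoxA1 cells 16 members fell and 2 rose, with 49.2% of all 12563 tested genes called, 24.2% lower and 25% higher. The median log2 fold change of the members was -0.15, against 0.00 over all genes. The S phase list had 17 of 40 genes lower and 2 higher (median -0.14), the mitosis list 29 of 36 lower (median -0.28), and MKI67 had -0.40 ± 0.05 (SE, adjusted p = 4.6e-05); their part in the result was not tested. The tables of the 2 FOXA1 experiments were normalized separately, and FOXA1 itself was at 50.9% of pLKO in shFOXA1 and at 62.7% of pGIPZ in shFoxA1. Called lower in both experiments were 15 members, 44.1% of the 34 that fell in shFOXA1 and 93.8% of the 16 that fell in shFoxA1, where 16% of all 12042 genes tested in both were called lower in both. Without the members that passed the pLKO filter through pLKO alone, 12 remain.

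CHEK2 and BARD1 were lowest. CHEK2 had 6.92, 7.69 and 8.85 RPKM in K295A, 8.55, 6.93 and 7.34 in WT and 5.86, 4.29 and 3.84 in shFoxA1 libraries, against 8.13, 7.49 and 7.32 RPKM in pGIPZ libraries. The shFoxA1 libraries were below all others, and the log2 fold change against pGIPZ was -0.62 ± 0.12 (SE, adjusted p = 0.00117). BARD1 had 16.8, 17.6 and 17.4 RPKM in K295A, 15.3, 15.5 and 15.7 in WT and 13.3, 12.6 and 13.7 in shFoxA1 libraries, against 19.9, 19.1 and 19.2 RPKM in pGIPZ libraries. Here the 4 groups did not overlap, with shFoxA1 lowest and pGIPZ highest. The log2 fold changes against pGIPZ were -0.16 ± 0.04 (SE, adjusted p = 0.00399) in K295A, -0.31 ± 0.04 (SE, adjusted p = 5e-05) in WT and -0.52 ± 0.04 (SE, adjusted p = 3.1e-07) in shFoxA1. FANCE and RAD54L came next, at -0.48 ± 0.09 (SE, adjusted p = 0.00121) and -0.43 ± 0.07 (SE, adjusted p = 0.00018), and FANCD2 and FANCI both stood at -0.38 (adjusted p = 0.00013 and 0.00071).

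At the upper end, NBN had 12.1, 12.1 and 11.9 RPKM in K295A, 11.6, 12.6 and 11.4 in WT and 12.9, 11.8 and 11.9 in shFoxA1 libraries, against 9.78, 9.75 and 9.51 RPKM in pGIPZ libraries. All 9 hairpin libraries exceeded the pGIPZ libraries, and the shFoxA1 log2 fold change was 0.31 ± 0.04 (SE, adjusted p = 0.00013). RAD54B, a relative of RAD54L, had 1.15, 1.22 and 1.33 RPKM in shFoxA1 libraries, against 0.907, 0.989 and 0.808 RPKM in pGIPZ libraries, with a log2 fold change of 0.23 ± 0.08 (SE, adjusted p = 0.0281) that lost its call without pGIPZ replicate 1 or 3 or shFoxA1 replicate 2 or 3 (0.20 to 0.24, adjusted p 0.0559 to 0.101), with a replicate block (adjusted p = 0.0502) or in the fit of shFoxA1 and pGIPZ alone (0.0681). FANCL and PALB2 had 0.19 ± 0.14 (SE, adjusted p = 0.287) and 0.17 ± 0.08 (SE, adjusted p = 0.0829). NBN, RAD54B, PALB2 and RBBP8 lay above all pGIPZ libraries in shFoxA1 and below all pLKO libraries in shFOXA1; 14.7% of all 12042 genes tested in both lay on opposite sides with no overlap, so these 4 of 41 are not above the background. BRCA1 had -0.19 ± 0.06 (SE, adjusted p = 0.0277), lost without pGIPZ replicate 1 or 2 or shFoxA1 replicate 2 (-0.17 to -0.15, adjusted p 0.0893 to 0.104) and in the fit of shFoxA1 and pGIPZ alone (0.0851). BLM, EXO1 and FANCC did not pass with all libraries. BLM was called lower without shFoxA1 1 or pGIPZ 2 (adjusted p = 0.0391 and 0.0477), EXO1 without pGIPZ 3 or shFoxA1 3 (0.0342 and 0.0430), and FANCC without shFoxA1 2 (0.0169). The RAD50 call was lost without pGIPZ 1 or 2 or shFoxA1 2 (adjusted p 0.0715 to 0.0804). That of RAD51D was lost without pGIPZ 1 or 2 or shFoxA1 2 or 3 (0.0982 to 0.155), with a replicate block (0.0697) and without the filter on low values (0.0942), and that of XRCC2 without pGIPZ 1 or shFoxA1 3 (0.0504 to 0.0587). BRCA2, ATM and MSH6 had -0.02 ± 0.07 (SE, adjusted p = 0.843), 0.04 ± 0.07 (SE, adjusted p = 0.635) and -0.15 ± 0.08 (SE, adjusted p = 0.136).

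Most members were higher in hairpin cells that were given FOXA1 than in those that were not. EME1 differed most in K295A and UBE2T in WT. Against shFoxA1, 31 members were higher and none lower in K295A (56.9% of all genes called, 38.7% higher), and 32 higher and none lower in WT (55.5% called, 36.6% higher). Median log2 differences of the members were 0.36 in K295A and 0.31 in WT, where all genes had 0.10 and 0.08. Under median-ratio scaling, 24 members were higher and 1, NBN, was lower in each (-0.13 in both, adjusted p = 0.0329 in K295A and 0.0303 in WT). Of all called genes, 49.4% were then higher in K295A and 49.9% in WT, where the unscaled values gave 67.9% and 65.9%. All 40 S phase and all 36 mitosis genes were higher as well (medians 0.53 and 0.71 in K295A, 0.49 and 0.68 in WT), and their part in the result was not tested.

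UBE2T, the leading member in WT, had 48.2, 50.8 and 47.0 RPKM in K295A, 48.6, 50.3 and 56.6 in WT and 30.1, 27.5 and 30.4 in shFoxA1 libraries, against 35.2, 36.9 and 39.0 RPKM in pGIPZ libraries. The shFoxA1 libraries were below all pGIPZ libraries and the rescued libraries above them, with log2 differences from shFoxA1 of 0.71 ± 0.06 (SE, adjusted p = 1.2e-06) in K295A and 0.80 ± 0.06 (SE, adjusted p = 4.5e-07) in WT. EME1, the leading member in K295A, had 7.48, 6.54 and 7.77 RPKM in K295A, 6.64, 5.65 and 6.64 in WT and 3.62, 3.86 and 3.51 in shFoxA1 libraries, against 5.47, 4.67 and 5.5 RPKM in pGIPZ libraries. The shFoxA1 libraries were the lowest, and the differences from them were 0.82 ± 0.08 (SE, adjusted p = 3.6e-06) in K295A and 0.65 ± 0.08 (SE, adjusted p = 2.8e-05) in WT. EXO1 had 5.27, 5.13 and 4.58 RPKM in K295A, 5.34, 5.79 and 5.77 in WT and 2.79, 2.98 and 3.31 in shFoxA1 libraries, against 3.43, 4.17 and 3.26 RPKM in pGIPZ libraries. The rescued libraries lay above all shFoxA1 and pGIPZ libraries, and the differences from shFoxA1 were 0.57 ± 0.08 (SE, adjusted p = 8e-05) in K295A and 0.72 ± 0.08 (SE, adjusted p = 1.3e-05) in WT. RAD54L had differences of 0.67 and 0.70, FANCE 0.68 and 0.64, and CHEK2 0.65 and 0.61 in K295A and WT, all called. ATM, NBN, RAD52, RAD54B, FANCL, PMS2 and SLX4 passed in neither.

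These comparisons share the shFoxA1 libraries with those of shFoxA1 against pGIPZ. RAD50 had 0.13 ± 0.05 (SE, adjusted p = 0.0687) in WT, and its K295A call at 0.18 ± 0.05 (SE, adjusted p = 0.0126) was lost without shFoxA1 replicate 2 or K295A replicate 1 (0.15, adjusted p = 0.0532 and 0.0548). Calls lost without 1 library or another were, in K295A, those of BRCA2, BRIP1, FANCM, MUS81, RAD50, RMI1 and WRN, and in WT those of ATR, ATRIP, BRIP1, FANCF, FANCM, MUS81, PALB2, RAD51D and RMI1.

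**Figure D4:**
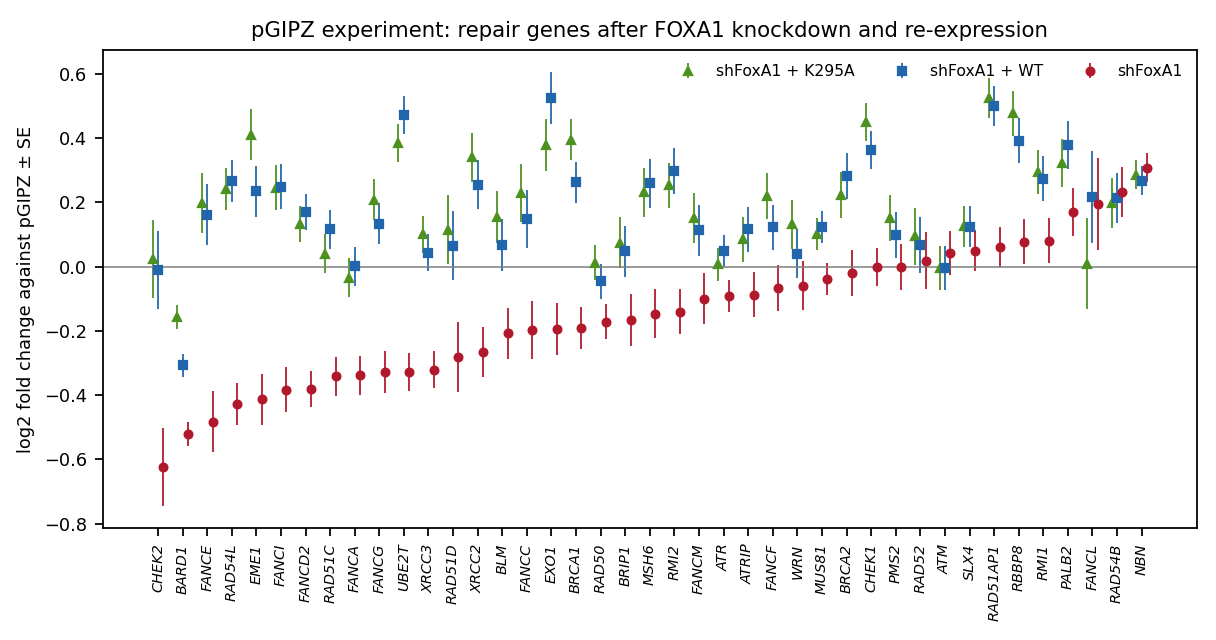
Log2 fold change ± SE of each of the 41 genes against pGIPZ in shFoxA1 cells given K295A or WT FOXA1 and in shFoxA1 cells alone (3 libraries each), ordered by the shFoxA1 value. Most K295A and WT points lie above 0 and above the shFoxA1 point; BARD1 stays below 0 in all 3 groups, and NBN stays above 0 in all 3.

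Against pGIPZ itself, 18 members were higher and 1, BARD1, was lower in K295A (50.5% of all genes called, 37.8% higher, 12.8% lower), and WT had the same counts (45.5% called, 33.7% higher, 11.8% lower). The members' share of higher calls is near the background here, and their medians were 0.20 in K295A and 0.15 in WT, where all genes had 0.11 and 0.10. Median-ratio scaling left 10 higher and 1 lower in each; among all called genes the share higher was then 49.5% in K295A and 48.5% in WT, where the unscaled values gave 74.7% and 74%. RAD51AP1 had 10.0, 9.8 and 10.6 RPKM in K295A, 9.37, 10.4 and 10.1 in WT and 7.36, 6.54 and 7.35 in shFoxA1 libraries, against 6.3, 7.32 and 6.63 RPKM in pGIPZ libraries, with log2 fold changes of 0.52 ± 0.06 (SE, adjusted p = 3.5e-05) in K295A and 0.50 ± 0.06 (SE, adjusted p = 6.4e-05) in WT. The K295A and WT libraries lay above all pGIPZ libraries, while shFoxA1 and pGIPZ overlapped. RBBP8 had 6.77, 8.25 and 7.81 RPKM in K295A and 7.54, 6.38 and 7.42 in WT libraries, against 5.28, 5.1 and 5.12 RPKM in pGIPZ libraries, all above the pGIPZ libraries. Its log2 fold changes were 0.48 ± 0.07 (SE, adjusted p = 0.00018) and 0.39 ± 0.07 (SE, adjusted p = 0.00085), and those of EXO1 were 0.38 ± 0.08 (SE, adjusted p = 0.00218) and 0.53 ± 0.08 (SE, adjusted p = 0.00028). UBE2T had 0.39 ± 0.06 (SE, adjusted p = 0.00027) and 0.47 ± 0.06 (SE, adjusted p = 7.4e-05), and CHEK1 0.45 ± 0.06 (SE, adjusted p = 7.5e-05) and 0.36 ± 0.06 (SE, adjusted p = 0.00041) in K295A and WT. EME1 had 0.41 ± 0.08 (SE, adjusted p = 0.00117) in K295A. Its WT value of 0.23 ± 0.08 (SE, adjusted p = 0.0308) was lost without pGIPZ replicate 2 or WT replicate 1 or 3 (adjusted p 0.1 to 0.123).

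BRCA1 was higher than pGIPZ in both, at 0.40 ± 0.06 (SE, adjusted p = 0.00036) in K295A and 0.26 ± 0.06 (SE, adjusted p = 0.00587) in WT, with the WT call lost under scaling (adjusted p = 0.0504). BRCA2 had 0.22 ± 0.07 (SE, adjusted p = 0.0235) in K295A and 0.28 ± 0.07 (SE, adjusted p = 0.00792) in WT. The K295A call was lost without pGIPZ replicate 3 or K295A replicate 1 or 2 (adjusted p 0.0528 to 0.0835). FANCD2 had 0.13 ± 0.06 (SE, adjusted p = 0.0655) in K295A, called without pGIPZ replicate 2 or K295A replicate 1 (adjusted p = 0.0372 and 0.0488), and 0.17 ± 0.06 (SE, adjusted p = 0.026) in WT, lost without pGIPZ replicate 1 or 3 or WT replicate 3 (adjusted p 0.0534 to 0.104). MSH6 had 0.23 ± 0.08 (SE, adjusted p = 0.0243) in K295A, lost without pGIPZ replicate 2 or 3 or K295A replicate 1 or 2 (adjusted p 0.0670 to 0.0974). Its WT value of 0.26 ± 0.08 (SE, adjusted p = 0.0156) was lost without pGIPZ replicate 3 or WT replicate 3 (adjusted p = 0.0599 and 0.0501). At the low end beside BARD1, FANCA had -0.03 ± 0.06 (SE, adjusted p = 0.666) in K295A and RAD50 had -0.05 ± 0.05 (SE, adjusted p = 0.518) in WT. ATM did not pass in either (adjusted p = 0.964 in K295A and 0.966 in WT). The S phase list had 38 of 40 genes higher in K295A and 37 in WT (medians 0.40 and 0.34), the mitosis list 35 and 36 of 36 (medians 0.44 and 0.40), and CDKN1A was lower, at -0.90 and -0.80; their part in the result was not tested.

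Between K295A and WT none of the 41 members passed, with 2 at an unadjusted p below 0.05 and 0.183% of all 12563 genes called (0.0876% higher, 0.0955% lower). Voom on the recovered reads called 1, BARD1, higher in K295A (0.16, adjusted p = 0.0480). The log2 differences ran from -0.21 for FANCL to 0.18 for EME1, and their 95% intervals reached from -0.52 to 0.35. BARD1 had 16.8, 17.6 and 17.4 RPKM in K295A libraries, against 15.3, 15.5 and 15.7 RPKM in WT libraries, with no overlap and a difference of 0.15 ± 0.04 (SE, adjusted p = 0.175). For BRCA1 the difference was 0.13 ± 0.06 (SE, adjusted p = 0.509) (interval -0.01 to 0.27), for FANCD2 -0.04 ± 0.06 (SE, adjusted p = 0.867) (interval -0.16 to 0.08), and for UBE2T -0.09 ± 0.06 (SE, adjusted p = 0.666) (interval -0.22 to 0.04).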

How the data were processed

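RNA-seq libraries of LNCaP cells were collected in 3 experiments. The authors deposited FPKM in a table of the pLKO and siRNA libraries, and RPKM in a table of the pGIPZ libraries, per the file headers. The submitters' processing notes name STAR and hg38, and no source used here gives the counter or annotation. Relative depth per library was read from the deposited steps, and 99.7% of 26443 genes gave whole reads within 0.05. The search tried at most 6000 reads in the lowest library. Sums of recovered reads leave out genes without whole reads, so they can rank libraries differently from relative depth. FPKM and RPKM are scaled by library total, so a few abundant genes can shift all others, and the 2 tables were never compared as levels.

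Tests used limma 3.58.1 in R 4.3.3, with trended empirical Bayes on log2(value + 1) and 1 fit per experiment over all its groups. Genes needed a value of at least 1 in 3 libraries, and Benjamini-Hochberg adjustment ran over all tested genes. The fitting was tested on simulated data. The 13 comparisons were repeated with a pseudocount of 0.1, no filter, median-ratio scaling, 2-group fits, a replicate block, without each library in turn, and, chosen after seeing the data, with limma voom on recovered reads. Tables and plots used Python 3.11.15, NumPy 2.4.6, pandas 2.3.3 and matplotlib 3.10.9. Positions are those of GENCODE 29 on GRCh38. The members and gene lists were chosen with earlier results of these data known. Named genes were BRCA1, BRCA2, FANCD2, ATM and MSH6, the 4 highest and 4 lowest members of each control comparison, and the extremes of each role. Some of the luminal marker genes are not reported here.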

Additional observations from a re-analysis of the deposited data

Results flagged for a closer look

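A few members, PALB2, RAD54B, NBN and RBBP8, lay on opposite sides of their control in the FOXA1 hairpin experiments, with no overlap between hairpin and control libraries in either. Of all 12042 genes tested in both, 14.7% did so, a larger share than among the members. PALB2 had a log2 fold change of -0.71 in shFOXA1 against pLKO and 0.17 in shFoxA1 against pGIPZ. RAD54B had -0.58 in shFOXA1 against pLKO and 0.23 in shFoxA1 against pGIPZ. NBN had -0.56 in shFOXA1 against pLKO and 0.31 in shFoxA1 against pGIPZ. RBBP8 had -1.20 in shFOXA1 against pLKO and 0.078 in shFoxA1 against pGIPZ. The pGIPZ values of PALB2 and RBBP8 did not pass. The pGIPZ call of RAD54B was lost with a replicate block (adjusted p = 0.0502), in the fit of those 2 groups alone (0.0681) and without pGIPZ replicate 1 or 3 or shFoxA1 replicate 2 or 3 (0.0559 to 0.101), and RAD54B passed the filter of the pLKO experiment through its pLKO libraries alone. The 2 experiments differ in vector, control and table, and the difference between them was not tested.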

How the results depend on the processing

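Of 6248 results for single members under the alternatives, 5882 kept a call in the same direction or stayed uncalled, 285 lost a call and 80 gained one. Changes of sign in results that stayed uncalled were not counted. One reversed: ATR, called neither way between shUSP7 and shBUB3 at 0.05, was lower in shUSP7 at -0.14 (adjusted p = 0.0155) without shBUB3 replicate 3, with values of -0.14 to 0.16 over the left-out libraries. Median-ratio scaling called 11 members in K295A against pGIPZ and 11 in WT against pGIPZ, where the unscaled values called 19 each. A fit of 2 groups called 12 between shFOXA1 and shBUB3, not 20. In that fit 23 members kept their result and 7 lost a call, and the rest fell under the filter and were not tested. Voom called 1 between K295A and WT, not 0. Over all genes the K295A and WT comparison had 23 calls, 163 with voom and 6 in the 2-group fit. Leaving out 1 library at a time gave 26 to 35 called members in shUSP7, 26 to 36 in shBUB3, 27 to 36 in shFOXA1 and 28 to 29 in siEZH2 against their controls. The low ends of the pLKO ranges come from fits without a pLKO library, in which 8 members fall under the filter. The same step gave 15 to 19 in K295A, 14 to 18 in WT and 13 to 19 in shFoxA1 against pGIPZ, 26 to 30 in K295A and 25 to 28 in WT against shFoxA1, and 0 to 0 between K295A and WT. It gave 20 to 25 for shFOXA1 against shUSP7, 15 to 20 for shFOXA1 against shBUB3 and 16 to 22 for shUSP7 against shBUB3. Replicate numbers did not pair the libraries: deviations of same-numbered libraries correlated at -0.18 to 0.13 in the pLKO experiment, -0.13 to 0.06 in the siRNA experiment and -0.07 to 0.04 in the pGIPZ experiment. With a replicate block, 35 members were called in shUSP7, 36 in shBUB3, 35 in shFOXA1, 29 in siEZH2, 19 in K295A, 18 in WT and 16 in shFoxA1 against their controls, 33 in K295A and 32 in WT against shFoxA1, and 0 between K295A and WT. It called 26 for shFOXA1 against shUSP7, 18 for shFOXA1 against shBUB3 and 19 for shUSP7 against shBUB3. The siRNA experiment has 2 groups, so its 2-group fit is the fit reported. The cause of these shifts was not tested. Depth limits the low members: 8 members in shUSP7, 10 in shBUB3 and 10 in shFOXA1 had a library under 50 recovered reads.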
